A study of Homo sapiens with 36 samples.

Results

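The genes described here form the prolactin receptor and STAT5 route. They were measured in ZR-75-1, an established line from a breast carcinoma that carries estrogen, progesterone and androgen receptors. The members were 7 named genes, PRLR, JAK2, STAT5A, STAT5B, CISH, SOCS2 and SOCS3, of 18665 genes with a probe of their own on the arrays, and all 10 of their probes were taken whatever they showed. Expression was measured on 36 Illumina HumanWG-6 v3 arrays in 9 groups of 4. The treated groups were E2pre+P4 (72 h of estradiol, E2, with 16 h of progesterone, P4), E2+DHT, E2+MPA and E2+P4 (16 h of both hormones together), and E2, DHT, MPA and P4 alone for 16 h. DHT is dihydrotestosterone, an androgen, and MPA is medroxyprogesterone acetate, a synthetic progestin. The control group received vehicle, which was ethanol. Every hormone was used at 10 nM, and all cells, vehicle included, were bought from ATCC, used at passage 16 and kept in phenol red-free medium with hormone-stripped serum. The labels place the P4 of the E2pre+P4 group inside the 72 h and the methods after it, and no group received E2 alone for 72 h. ZR-75-1 is a single line, and the labels do not say whether the 4 samples of a group were separate cultures, so that p-values measure only the spread between these samples.

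Prolactin, a pituitary hormone of breast development and lactation, binds the prolactin receptor PRLR, a cytokine receptor without a kinase of its own. The kinase JAK2 sits on the receptor and phosphorylates the transcription factors STAT5A and STAT5B, which then enter the nucleus and switch on genes, milk proteins among them. CISH and members of the SOCS family are induced by STAT5 and act back on the receptor complex, so that they are commonly read as feedback inhibitors of the route. Growth hormone and several cytokine receptors use the same kinase and transcription factors. No sample received prolactin, and phosphorylation was not measured.

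CISH is the classic STAT5 target among the members, and the stretch in front of its gene is printed because it carries the letters that STAT5 binds. CISH lies on chromosome 3 (chr3:50606489-50611774, minus strand, GRCh38.p14). The 250 bases before its start (chr3:50611775-50612024, RefSeq, minus strand) read 5′ to 3′ as follows, with each match of TTCNNNGAA, the palindromic STAT motif, in capitals.
CISH: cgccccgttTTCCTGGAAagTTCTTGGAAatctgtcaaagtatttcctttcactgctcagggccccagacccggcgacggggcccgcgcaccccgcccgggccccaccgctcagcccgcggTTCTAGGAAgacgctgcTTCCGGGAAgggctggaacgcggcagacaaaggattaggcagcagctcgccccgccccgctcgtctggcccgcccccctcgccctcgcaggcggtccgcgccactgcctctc
The 4 matches began 241, 230, 129 and 112 bases before the start. Of 35116 windows of this length in the RefSeq table, 6.57% held at least 1 match on either strand and 10 windows (0.0285%) held 3 or more. The table had windows for 6 of the 7 members, 13 windows in all, and the motif was found in no window of PRLR, JAK2, STAT5A, STAT5B or SOCS3. AGAACA, the core element shared by the androgen and progesterone receptors, occurred in a window of PRLR and in overlapping windows of STAT5A (12.4% of all windows held it), and the estrogen receptor element, GGTCA and TGACC with 3 bases between them, occurred in none of the members' windows (0.0399% of all). A match is a description of the letters only.

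On each array between 12191 and 14806 probes were detected, at a detection p under 0.01, and 9902 genes were tested. The 10 markers of luminal breast epithelium were detected on all 36 arrays, and of 4 basal or mesenchymal markers with a probe none was detected on any array. Outside the epithelium, CD68 was detected on 35 arrays, COL1A1 on 36 and VWF on 9, whereas PTPRC, CD3E, COL1A2, COL3A1, PDGFRB, DCN and CDH5 were detected on none. PGR, the gene of the progesterone receptor, was detected on 0 of 4 arrays in each of the vehicle, P4, MPA and DHT groups. With E2 it was detected on 3 E2, 4 E2+P4, 2 E2+MPA, 4 E2+DHT and 3 E2pre+P4 arrays. How this bears on the P4 results was not tested. Replicate 2 of E2 and replicate 2 of E2pre+P4 carried each other's levels: over 147 genes that set these groups apart on their other arrays, the E2pre+P4 array was nearer E2 for 143 and the E2 array was nearer E2pre+P4 for 140. A swap of the labels was not tested, both arrays were kept as labelled, and the member calls that rest on these groups are also given without the pair.

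The probes of the members differed widely in brightness on the log2 scale of normalised intensity. PRLR, CISH and SOCS2 were detected on all 36 arrays. STAT5B was detected on 26 arrays, JAK2 on 15 and STAT5A on 6. Both SOCS3 probes were detected on 0 of 36 arrays, with levels of 5.05 to 5.93 and 5.13 to 5.91, so that SOCS3, an inhibitor of JAK2 and of the interleukin-6 receptor, was measured only as a bound and entered no test. Of the 10 probes 8 passed the filter, which needed a detection on 4 arrays, and 6 members were tested. STAT5A passed it through 3 E2+MPA arrays, 2 E2pre+P4 arrays and 1 E2 array, the doubted replicate 2. It was thus tested only because of groups in which it was high. The JAK2 detections likewise fell mostly on arrays that held E2 with another hormone.

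SOCS2 moved most of the members: it rose 3.18-fold with DHT, 3.09-fold with E2 and DHT and 2.39-fold with MPA, and fell below vehicle in E2pre+P4 cells. JAK2 was higher in 3 of the groups that held E2 with another hormone, STAT5A in E2+MPA cells, and CISH was slightly lower in MPA and E2+DHT cells. PRLR and STAT5B passed the test in none of 25 comparisons. Of 150 tests of a member in a comparison, 20 passed an adjusted p under 0.05 (limma, adjusted over all 9902 genes), 15 higher and 5 lower, and 12 of the 20 were SOCS2. Across the 25 comparisons the share of all genes that passed ran from 0% to 6.18%. Without the 2 doubted arrays 28 member tests passed, of which 19 were shared, and the share of all genes ran from 0% to 5.5%. In that fit 5.5% of all genes passed for E2pre+P4, 4.27% for E2+MPA, 2.35% for MPA and 2.19% for E2+P4 against vehicle. The share was 3.51% for E2pre+P4 against P4, 1.27% for E2pre+P4 against E2+P4, 1.11% for E2+MPA against E2+P4 and 0.626% for E2+DHT against E2+MPA.

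Against vehicle, 11 of 48 tests passed, 8 higher and 3 lower. In E2pre+P4 cells JAK2 was higher and SOCS2 lower, 2 of 6 members against 6.18% of all genes. In E2+DHT cells JAK2 and SOCS2 were higher and CISH lower, 3 of 6 against 4.81% of all genes. In E2+MPA cells JAK2, STAT5A and SOCS2 were higher, 3 of 6 against 3.87%. E2+P4 and E2 moved 0 of 6 members, where 1.92% and 1.37% of all genes passed, with 1 member in each at an unadjusted p under 0.05, as had 1505 and 1037 of the 9902 genes. DHT moved SOCS2 alone, 1 of 6 against 2.4%, and MPA moved SOCS2 up and CISH down, 2 of 6 against 1.96%. P4 moved 0 of 6 members and 0% of all genes, with 3 members at an unadjusted p under 0.05, a threshold that 2608 of the 9902 genes passed. The median change over all genes was -0.12 with P4 and -0.12 with MPA and lay between -0.07 and -0.01 with the other treatments, which is the shift beside which the lower PRLR, STAT5B and CISH values of P4 or MPA cells stand. The median over the 6 members ran from -0.16 with P4 to 0.49 with E2+MPA.

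**Figure D1:**
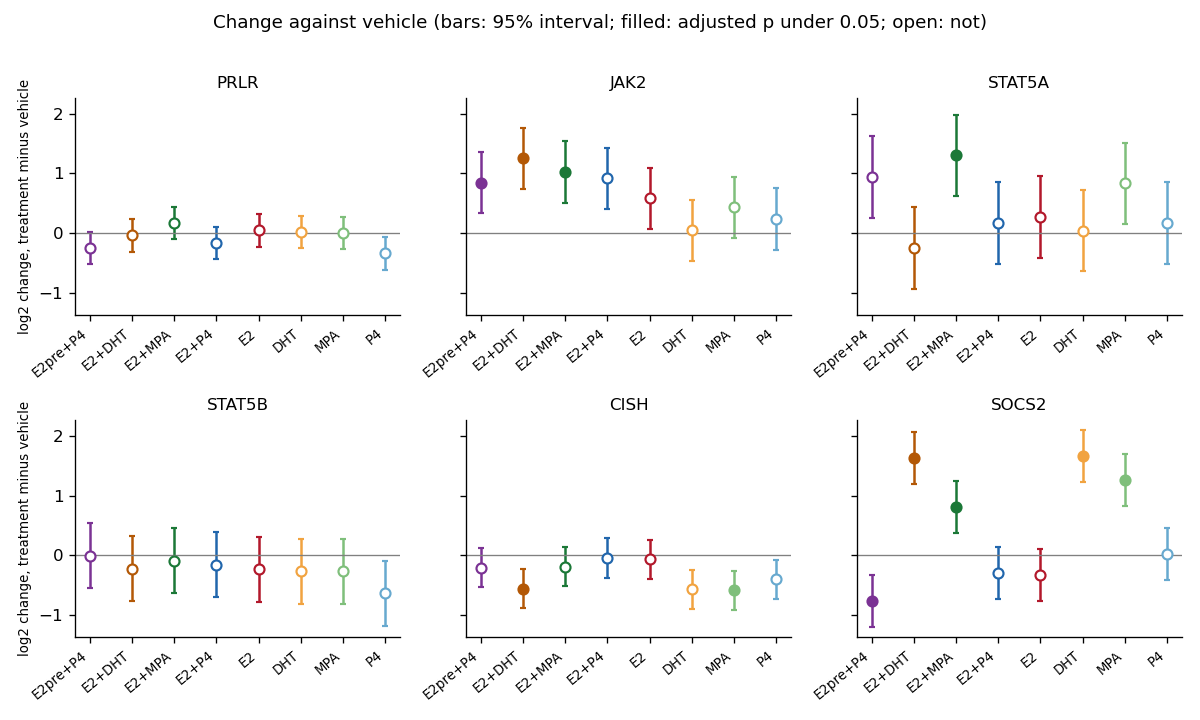
Log2 change of the 6 tested members in each of the 8 treatments against vehicle (vertical axis; points are fitted differences between groups of 4 arrays, bars their 95% intervals, filled points an adjusted p under 0.05). SOCS2 spans from -0.77 in E2pre+P4 cells to 1.67 in DHT cells, whereas every PRLR and STAT5B point is open; JAK2 and STAT5A were not detected on any vehicle array, so that their points are fitted values and not measured folds.

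PRLR, the receptor itself, lies on chromosome 5 (chr5:35048756-35230487, GRCh38.p14) and stayed within a narrow band. Its group means ran from 9.26 in P4 cells to 9.76 in E2+MPA cells, a range of 0.51 against an SD of 0.18 within groups. In P4 cells PRLR was at 9.19, 9.51, 9.28 and 9.05, against 9.90, 9.47, 9.41 and 9.61 in vehicle cells. The P4 arrays were low but overlapped vehicle, with a difference of -0.34 (95% interval -0.62 to -0.07, adjusted p 0.14). In E2+MPA cells the arrays were at 9.75, 9.62, 9.82 and 9.87, all above the 9.46, 9.35, 9.41 and 9.48 of E2+P4 cells, and the difference of 0.34 did not pass (adjusted p 0.25). All DHT arrays likewise lay above the P4 arrays, at 9.51 to 9.73 against 9.05 to 9.51, with a difference of 0.36 (adjusted p 0.21). No neighbours in the order of PRLR levels differed beyond their 95% interval. The second PRLR probe was dimmer, at 7.13 to 8.82, and followed the first with a Pearson r of 0.76 over the 36 arrays. It likewise averaged lowest in P4 cells (7.42 ± 0.22, SD, n = 4) and highest in E2+MPA cells (8.35 ± 0.39, SD, n = 4).

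JAK2, the receptor-bound kinase, lies on chromosome 9 (chr9:4984390-5129948). It reached 7.46, 7.82, 7.16 and 8.30 in E2+DHT cells, detected on 4 of 4 arrays, against 5.52, 6.82, 6.63 and 6.77 in vehicle cells, detected on none. In E2+MPA cells it was at 7.69, 7.36, 7.35 and 7.42, again detected on 4 of 4 arrays. All arrays of both cotreatments lay above every vehicle array. Since vehicle was below detection, changes of JAK2 against it are lower bounds, set against the higher of the probe's own level and the lowest detected level of each vehicle array. Where the brighter group held undetected arrays too, their own levels entered its mean, and the bound is only approximate. This holds for JAK2 in E2+P4 and E2pre+P4 cells and for every bound of STAT5A. JAK2 was at least 1.55-fold higher in E2+DHT cells (adjusted p 0.00153) and at least 1.32-fold higher in E2+MPA cells (adjusted p 0.0149) than in vehicle cells.
In E2pre+P4 cells JAK2 was at 7.74, 6.76, 7.61 and 6.98, detected on 2 arrays and overlapping vehicle, at least 1.17-fold higher (adjusted p 0.0401), and at least 1.31-fold higher without the doubted pair (adjusted p 0.0177). That call was lost with the replicate block (adjusted p 0.0528) and in 4 other alternatives of 9. In E2+P4 cells it was at 7.53, 7.49, 7.40 and 6.99, detected on 3 arrays, at least 1.23-fold higher with an adjusted p of 0.050 that fell just short of the threshold and was 0.0390 without the doubted arrays. Under single hormones JAK2 was mostly below detection: E2 arrays ran from 6.77 to 7.27, MPA from 6.61 to 7.07, P4 from 6.23 to 7.0 and DHT from 6.11 to 6.71, with 2 of these 16 arrays detected. None of the 4 passed against vehicle (adjusted p from 0.24 to 0.97). JAK2 in E2+DHT, E2+MPA and E2+P4 cells did not pass against E2 cells either (adjusted p 0.428, 0.533 and 1.0), nor did E2+MPA against MPA (0.219) or E2+P4 against P4 (0.372).
E2 added to DHT raised JAK2 by at least 1.44-fold over DHT alone, with no overlap (adjusted p 0.00522), 1 of 6 members against 1.15% of all genes. The vehicle group held an array far below its others, replicate 1 at 5.52. Without it the call held for E2+DHT (adjusted p 0.0144) and was lost for E2+MPA (adjusted p 0.103) and E2pre+P4 (adjusted p 0.299). The E2pre+P4 call was also lost without its own replicate 1 (0.166) or 3 (0.146), and the call over DHT alone without E2+DHT replicate 4 (0.0537).

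STAT5A, the main STAT of prolactin signalling in the mammary gland, lies on chromosome 17 (chr17:42287439-42311943) and overlaps its neighbour STAT5B (chr17:42199177-42288370) by 932 bases. STAT5A was dim. In E2+MPA cells it was at 7.30, 6.67, 7.70 and 7.25, detected on 3 of 4 arrays, against 5.50, 6.16, 5.74 and 6.33 in vehicle cells, detected on none. The groups did not overlap, and STAT5A was at least 1.13-fold higher in E2+MPA cells (adjusted p 0.0212, and 6.06e-05 without the doubted arrays). This call was lost when vehicle replicate 1 or 3 or E2+MPA replicate 3 or 4 was left out (adjusted p from 0.0545 to 0.0876). MPA alone was at 6.52, 6.70, 6.84 and 6.99, above every vehicle array, but on no array of either group was STAT5A detected, so that no fold can be given (adjusted p 0.13, and 0.0220 without the doubted arrays).
In E2pre+P4 cells STAT5A was at 7.05, 7.20 and 7.66 on replicates 1, 3 and 4 and at 5.56 on replicate 2. In E2 cells it was at 6.10, 5.43 and 5.76 on replicates 1, 3 and 4 and at 7.50 on replicate 2. Each doubted array thus sat at the level of the other group. With all arrays E2pre+P4 did not pass against vehicle (adjusted p 0.0907). Without the doubted pair STAT5A was at least 1.19-fold higher in E2pre+P4 than in vehicle cells (adjusted p 6.76e-05), at least 1.19-fold higher than in P4 cells (adjusted p 4.86e-04) and at least 1.17-fold higher than in E2+P4 cells (adjusted p 0.00115).
STAT5A in the other groups stayed low, at 5.53 to 5.85 in E2+DHT, 5.80 to 6.32 in E2+P4, 5.63 to 6.21 in DHT and 5.76 to 6.36 in P4 cells, with none of these 16 arrays detected. STAT5B, its close relative, was detected on more arrays but passed in no comparison. Its group means ran from 6.90 in P4 cells to 7.54 in vehicle cells, and P4 arrays at 6.33, 6.98, 7.13 and 7.17 lay below the vehicle arrays at 8.08, 7.22, 7.42 and 7.45, a difference of -0.64 (95% interval -1.18 to -0.10, adjusted p 0.15).

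**Figure D2:**
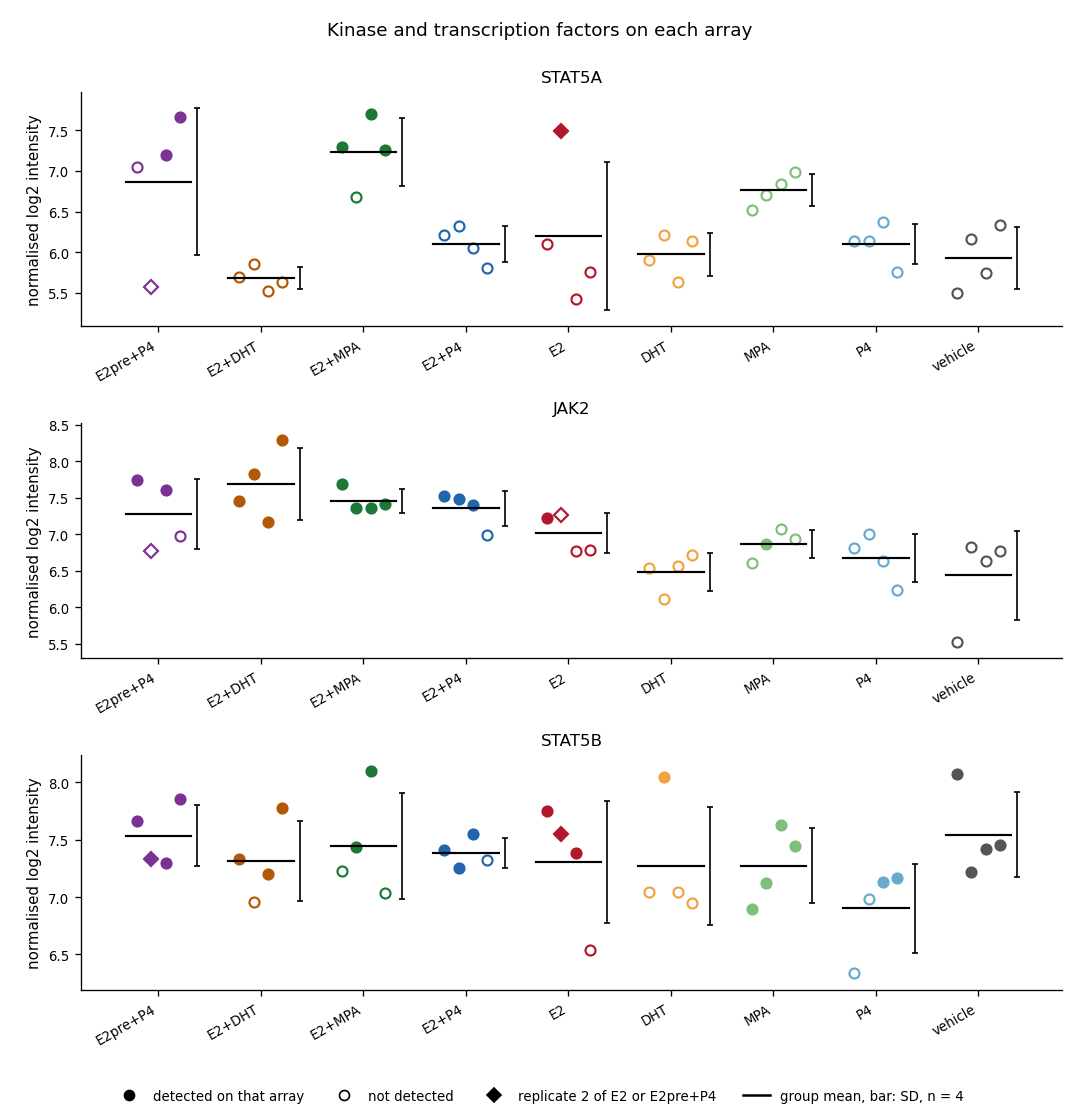
Normalised log2 intensity of STAT5A, JAK2 and STAT5B on each of the 36 arrays by group (filled points were detected, open points were not, diamonds are replicate 2 of E2 and of E2pre+P4, lines are group means and bars SD over 4 arrays). STAT5A stands at 6.67 to 7.70 in E2+MPA cells with the E2 diamond at 7.50 and the E2pre+P4 diamond at 5.56, and the lowest JAK2 point is vehicle replicate 1 at 5.52.

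CISH, the inhibitor whose promoter is printed above, was bright throughout, and its group means ran from 9.16 in MPA cells to 9.75 in vehicle cells. In E2+DHT cells it was at 9.15, 9.23, 9.36 and 9.03, below every vehicle array at 9.87, 9.50, 9.66 and 9.99, and the difference of -0.56 ± 0.16 (SE) passed (adjusted p 0.0373). In MPA cells it was at 9.13, 9.10, 8.90 and 9.53, overlapping vehicle on its highest array, with a difference of -0.59 ± 0.16 (SE, adjusted p 0.0488). DHT cells were at 9.28, 9.15, 8.83 and 9.47 and missed the threshold by little, at -0.57 ± 0.16 (SE, adjusted p 0.0504). The 3 differences were of like size, and their adjusted p-values lay close to the threshold on either side. E2+MPA cells averaged 9.56 ± 0.27, E2+P4 cells 9.71 ± 0.11 and E2 cells 9.68 ± 0.23 (SD, n = 4 each), near vehicle cells at 9.75 ± 0.22. P4 cells, at 9.29 to 9.42, lay below every vehicle array, with a difference of -0.41 that did not pass (adjusted p 0.14). The MPA call was lost in 7 of 9 alternatives, among them the fit without the doubted pair (adjusted p 0.0555), and the E2+DHT call in 2 of 9. Leaving out any of 6 single arrays ended the MPA call (adjusted p up to 0.207) and any of 6 ended the E2+DHT call (adjusted p up to 0.128).

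**Figure D3:**
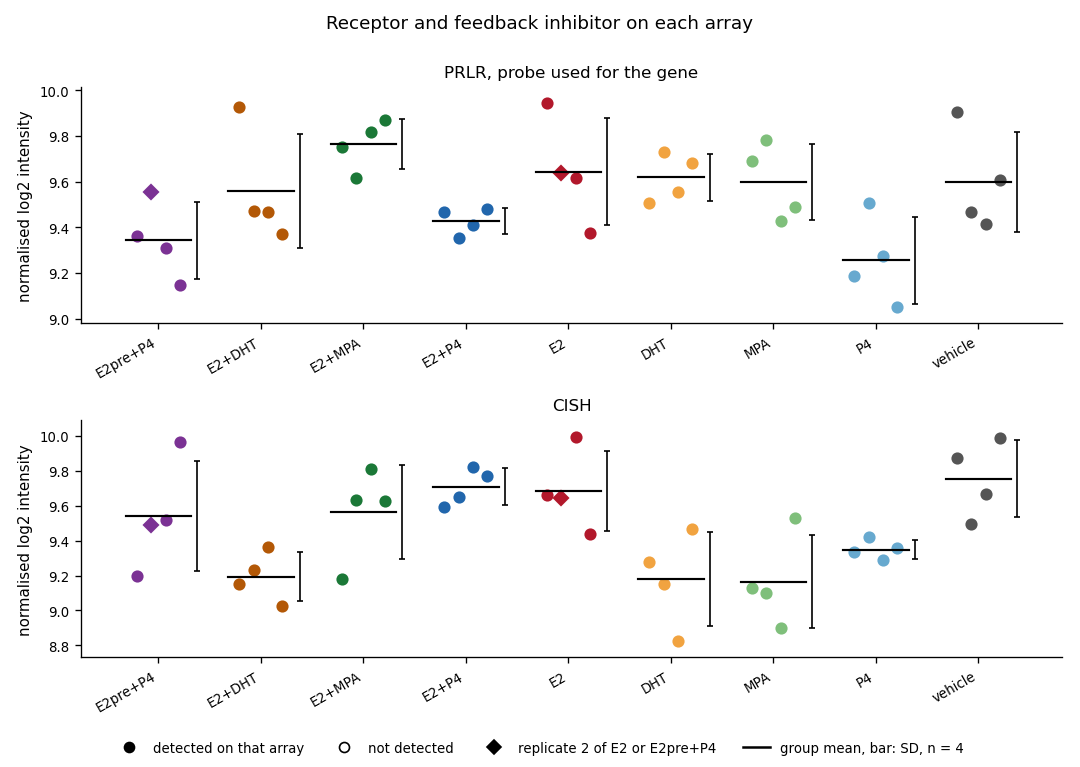
Normalised log2 intensity of PRLR (probe used for the gene) and CISH on each array by group (lines are group means, bars SD over 4 arrays, diamonds replicate 2 of E2 and of E2pre+P4). CISH lies at 9.03 to 9.36 in E2+DHT cells and at 9.50 to 9.99 in vehicle cells, and the PRLR groups overlap their vehicle arrays throughout.

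SOCS2, best known as the feedback inhibitor of growth hormone signalling, lies on chromosome 12 (chr12:93569969-93626236). In E2+DHT cells it was at 10.85, 10.79, 10.49 and 10.92, and in DHT cells at 10.81, 10.47, 11.04 and 10.89, against 8.70, 9.31, 9.22 and 9.32 in vehicle cells. Both androgen groups lay more than 1 log2 unit above the highest vehicle array. The change was 3.09-fold in E2+DHT cells (log2 1.63 ± 0.21, SE, adjusted p 3.30e-06) and 3.18-fold in DHT cells (log2 1.67 ± 0.21, SE, adjusted p 5.18e-06). MPA cells were at 10.39, 10.56, 10.40 and 10.24, 2.39-fold above vehicle (log2 1.26 ± 0.21, SE, adjusted p 8.01e-04). E2+MPA cells were lower, at 10.22, 9.72, 9.83 and 10.01, yet still above every vehicle array (1.75-fold, log2 0.81, adjusted p 0.0267). That last call was lost without vehicle replicate 1 (adjusted p 0.124), E2+MPA replicate 1 (0.0643) or E2+MPA replicate 4 (0.0801).
P4 cells were at 9.36, 9.38, 9.09 and 8.80, overlapping vehicle, and the difference was 0.02 (95% interval -0.42 to 0.46). E2+P4 cells were at 8.71, 8.69, 9.12 and 8.84 (difference -0.30, adjusted p 0.51) and E2 cells at 9.08, 8.15, 8.89 and 9.08 (difference -0.34, adjusted p 0.63). The lowest SOCS2 mean was that of E2pre+P4 cells, whose arrays were at 7.94, 8.17 and 8.20 on replicates 1, 3 and 4, with replicate 2 at 9.18. The doubted E2 array, at 8.15, lay among the 3 low arrays. The fall was 1.70-fold with all arrays (log2 -0.77, adjusted p 0.0282) and 2.05-fold without the doubted pair (log2 -1.04, adjusted p 8.43e-05). Against P4 alone it was 1.73-fold (log2 -0.79, adjusted p 0.0443), 1 of 6 members against 2.3% of all genes, and 2.08-fold without the pair (adjusted p 7.16e-05). With all arrays, leaving out any of 5 single arrays ended the call against vehicle (adjusted p up to 0.136) and any of 6 the call against P4 (adjusted p up to 0.219). The call against P4 was also lost in 8 of 9 alternatives, with the replicate block at an adjusted p of 0.0678, and that against vehicle in 4 of 9. The fit without the pair was the single alternative in which the call against P4 held.

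**Figure D4:**
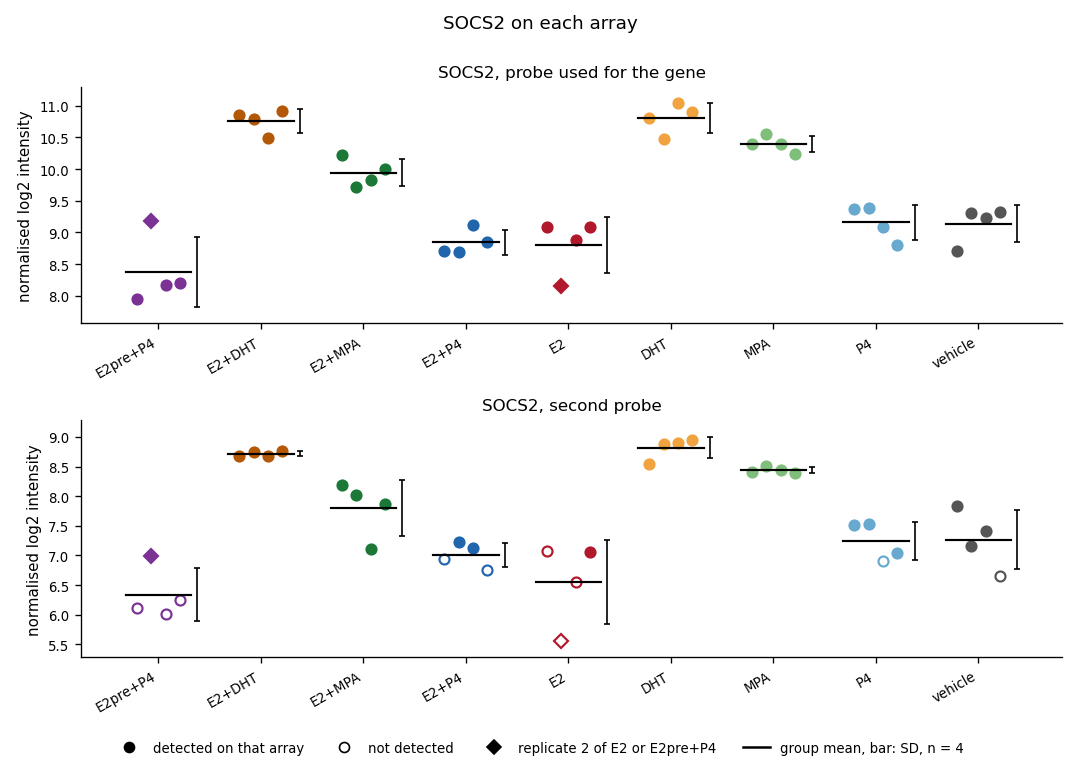
Normalised log2 intensity of both SOCS2 probes on each array by group (filled points were detected, open points were not, diamonds are replicate 2 of E2 and of E2pre+P4, lines are group means and bars SD over 4 arrays). The DHT and E2+DHT arrays sit between 10.47 and 11.04 on the probe used, all above the vehicle arrays at 8.70 to 9.32.

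The second SOCS2 probe, detected on 26 arrays, followed the first with a Pearson r of 0.94 over the 36 arrays. It averaged 8.71 ± 0.04 in E2+DHT, 8.82 ± 0.18 in DHT and 8.44 ± 0.05 in MPA cells, against 7.26 ± 0.49 in vehicle cells (SD, n = 4 each). In a fit over all 15112 kept probes these differences were 1.45, 1.55 and 1.17 on the log2 scale (adjusted p 7.36e-04, 6.19e-04 and 0.0170), where 3.93%, 1.75% and 1.5% of probes passed. E2+MPA cells averaged 7.80 ± 0.48 (SD, n = 4) on this probe. Their arrays, at 7.11 to 8.19, overlapped the vehicle arrays at 6.66 to 7.84. In E2pre+P4 cells the second probe was at 6.11, 7.0, 6.01 and 6.24, detected on the doubted replicate 2 alone, so that no fold is given there. The order of the groups by SOCS2 level ran DHT (10.80), E2+DHT (10.76), MPA (10.40), E2+MPA (9.94), P4 (9.16), vehicle (9.14), E2+P4 (8.84), E2 (8.80) and E2pre+P4 (8.37). Neighbours in this order differed by more than their 95% interval between MPA and E2+MPA and between E2+MPA and P4 only, with all arrays. Without the doubted pair E2 averaged 9.02, above E2+P4 at 8.84, and E2pre+P4 averaged 8.10. The last neighbours in the order, E2+P4 and E2pre+P4, then stood apart as well. Whether other neighbours also stood apart without the pair is not given here.

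Where E2 was already present, DHT raised SOCS2 3.90-fold over E2 alone (log2 1.96 ± 0.21, SE, adjusted p 3.14e-07), 1 of 6 members against 0.818% of all genes. Without the doubted pair it was 3.36-fold (adjusted p 2.99e-08, beside 0.879% of all genes). MPA raised it 2.21-fold over E2 alone (log2 1.14 ± 0.21, SE, adjusted p 0.00316), 1 of 6 against 0.889%. Without the pair 2 of 6 members passed there, against 1.52% of all genes: SOCS2 was 1.90-fold higher (adjusted p 0.00110), and STAT5A at least 1.07-fold higher (adjusted p 6.79e-05, and 0.138 with all arrays). P4 added to E2 moved 0 of 6 members and 0% of all genes, with 0 members at an unadjusted p under 0.05, and changed SOCS2 by 0.04 (95% interval -0.40 to 0.48). The second hormone's effect was compared with and without E2 by an interaction term, which passed for 0 of 18 member tests, with 1, in the term of MPA, at an unadjusted p under 0.05 (1449 of 9902 genes there), and for 0.0101% of genes with P4, 0% with MPA and 0% with DHT. For SOCS2 the interaction was 0.30 with DHT (95% interval -0.32 to 0.92) and -0.12 with MPA (-0.74 to 0.50), intervals that leave room for a moderate difference either way. In the reverse view, E2 added to P4 or to MPA moved 0 of 6 members each, against 1.28% and 1.15% of all genes, with 2 and 3 members at an unadjusted p under 0.05, beside 729 and 1870 of the 9902 genes. SOCS2 averaged 0.45 lower in E2+MPA than in MPA cells without passing (adjusted p 0.25). The highest E2+MPA array, at 10.22, lay just below the lowest MPA array, at 10.24.

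The length of E2 exposure was compared through E2pre+P4 against E2+P4 cells, which passed for 0 of 6 members and 0.0101% of all genes, with 2 members and 344 genes at an unadjusted p under 0.05. SOCS2 was lower by 0.47 on the log2 scale in E2pre+P4 cells (95% interval -0.91 to -0.03, adjusted p 0.999). Without the doubted arrays 2 of 6 members passed, against 1.27% of all genes: SOCS2 was 1.67-fold lower (log2 -0.74, adjusted p 0.0163) and STAT5A higher by the bound given above.

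The steroids other than E2 were set against each other at the same dose and time, in 6 pairs with p-values adjusted over all genes in each. P4 and MPA share the progesterone skeleton, to which MPA adds a methyl and an acetoxy group, and DHT is an androgen that lacks the side chain of both. Of 36 member tests 5 passed, 4 of them SOCS2. Without E2, SOCS2 was 2.36-fold higher in MPA than in P4 cells (log2 1.24 ± 0.21, SE, adjusted p 0.00141), 1 of 6 members against 0.374% of all genes, and 3.13-fold higher in DHT than in P4 cells (log2 1.65 ± 0.21, SE, adjusted p 6.77e-06), 1 of 6 against 1.42%. With E2, it was 2.15-fold higher in E2+MPA than in E2+P4 cells (log2 1.10, adjusted p 0.00699), 1 of 6 against 0.465%, and 3.79-fold higher in E2+DHT than in E2+P4 cells (log2 1.92, adjusted p 5.66e-07), 1 of 6 against 0.747%.
On the probe used for the gene, all 16 arrays with DHT or MPA stood above all 12 with P4. On the second SOCS2 probe E2+MPA replicate 3 was the exception, at 7.11 against P4 arrays at up to 7.52. Between DHT and MPA the picture was less sharp. Without E2 SOCS2 was higher in DHT cells by 0.41 (95% interval -0.03 to 0.85, adjusted p 0.44), and 0 of 6 members passed against 0.303% of all genes, with 1 member and 1155 genes at an unadjusted p under 0.05. With E2 it was higher in E2+DHT than in E2+MPA cells by 0.82 (95% interval 0.38 to 1.26), with no overlap, which missed the threshold with all arrays (adjusted p 0.14) and passed without the doubted pair (adjusted p 0.00350).
STAT5A ran the other way. It was at least 1.21-fold lower in E2+DHT than in E2+MPA cells, with no overlap (adjusted p 0.0273, and 1.26e-05 without the pair), 1 of 6 members against 0.293% of all genes. With all other arrays kept, leaving out any of 7 of these 8 arrays moved its adjusted p over the threshold (up to 0.157). STAT5A in E2+MPA cells also lay above every E2+P4 array (adjusted p 0.12, and 0.00162 without the pair). CISH did not differ past the threshold in any of the 6 pairs, with intervals reaching from -0.84 to 0.34, and neither did PRLR, JAK2 or STAT5B.

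**Figure D5:**
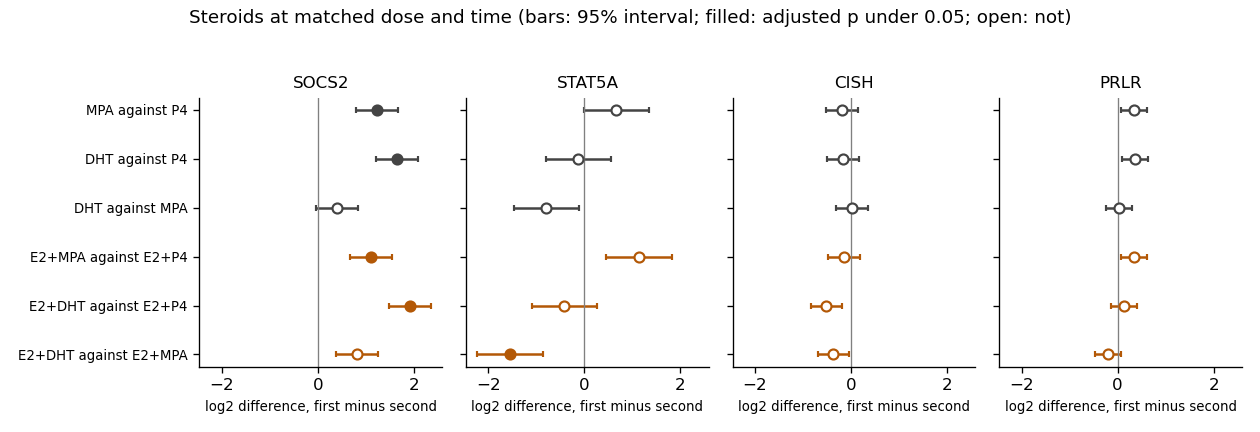
Log2 differences between steroids at matched dose and time for SOCS2, STAT5A, CISH and PRLR (horizontal axis, first-named group minus second; points are fitted differences between groups of 4 arrays, bars their 95% intervals, filled points an adjusted p under 0.05; grey without E2, brown with E2). SOCS2 stands at 1.10 to 1.92 in the 4 pairs that set MPA or DHT against P4, and the STAT5A difference of E2+DHT against E2+MPA is the only other filled point.

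Over the 36 arrays the members did not move as a block. CISH and SOCS2, both feedback inhibitors, ran opposite to each other (Pearson r -0.61), and the other 14 pairs of members lay between -0.22 and 0.36. The genes whose pattern was most like SOCS2 were THRSP, a nuclear protein of lipid synthesis (r 0.96), UGT2B11, a glucuronosyltransferase (r 0.92), and TARP (r 0.92). Each of them was also highest in DHT cells and lowest, or not detected, in E2pre+P4 cells. STAT5A was most like PNMT, which makes adrenaline (r 0.89), CALD1 (r 0.86) and FSIP1 (r 0.86). PNMT was detected on 4 of 4 E2+MPA, 3 of 4 MPA and 3 of 4 E2pre+P4 arrays, on 1 E2 array, and on none of the others. JAK2 was most like WEE1, a kinase that holds back mitosis (r 0.77), MTBP (r 0.77) and SCNN1G (r 0.75), and CISH like MTHFD1, a folate enzyme (r 0.84), FIBCD1 (r 0.81) and SLC6A9 (r 0.80). These values describe 36 arrays that share groups and scaling.

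Of 64 other genes of the route, 37 were measured well enough to test. With all arrays, the shares of all genes passing in the comparisons named below are those given above for the members. PRL, the gene of prolactin, was detected on 0 of 36 arrays, as were the probes of growth hormone and placental lactogen (GH1, GH2, CSH1 and CSH2). The STAT5-driven milk protein genes CSN2, CSN1S1 and LALBA and the alveolar regulator ELF5 were also detected on 0 arrays. Of 12 ligands and receptors 4 were tested, GHR, EPOR, IL6ST and LEPR, and IL6ST alone passed, in 8 comparisons. IL6ST, the signalling chain of the interleukin-6 receptor family, was at 11.23, 11.30, 11.03 and 11.61 in E2+DHT cells, 11.09, 11.03, 11.39 and 11.79 in E2+MPA cells, 11.23, 11.25, 11.22 and 11.08 in E2+P4 cells and 11.55, 11.22, 11.10 and 10.97 in E2 cells, against 10.63, 10.71, 10.69 and 10.40 in vehicle cells. Every array of these 4 E2 groups lay above every vehicle array. The group means were higher by 0.68, 0.72, 0.59 and 0.60 in that order (adjusted p from 0.00191 to 0.0213). E2 also raised IL6ST when added to DHT (0.86), to MPA (1.09) and to P4 (0.95), and in E2pre+P4 over P4 cells (0.79), all with an adjusted p of 7.72e-04 or less. Against vehicle E2pre+P4 did not pass (0.43, adjusted p 0.0696) unless the doubted pair was left out (0.51, adjusted p 0.0438).
Of 11 kinases and other STATs 5 were tested and 0 passed in any comparison. Of 12 adaptors 10 were tested, and SOS1, an exchange factor for RAS, alone passed. It was at least 1.53-fold lower in E2+P4 than in vehicle cells (adjusted p 0.0477), where 1.92% of all genes passed. In E2pre+P4 cells it was at least 1.50-fold lower than in vehicle cells (adjusted p 0.0334, and 0.14 without the doubted pair), where 6.18% passed. Arrays overlapped vehicle in both. SOS1 arrays of the other treated groups ran from 6.19 to 7.83, against 7.03 to 8.10 in vehicle cells. Of 14 negative regulators 10 were tested, and SOCS4 alone passed, in E2pre+P4 against vehicle cells, where 6.18% of all genes passed. It was lower by 0.44 (adjusted p 0.0317, and 0.0404 without the doubted pair). The lower SOCS4 level was not particular to E2pre+P4 cells. Arrays of the other treated groups ran from 9.41 to 9.99, against 9.84 to 10.15 in vehicle cells. The medians of these 3 lists against vehicle lay between -0.34 and -0.01, beside medians over all genes of -0.12 to -0.01, and that of the 4 ligand and receptor genes between 0.04 and 0.92.

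Of 15 genes known to respond to STAT5 or prolactin 8 were tested. BCL6, a repressor that STAT5 turns down in the mammary gland, rose in MPA cells, at 11.87, 11.93, 11.91 and 11.90, against 11.38, 11.35, 11.05 and 10.99 in vehicle cells (log2 0.71, adjusted p 0.00164). It also rose in E2+MPA (0.81, adjusted p 8.27e-05) and E2+DHT cells (0.55, adjusted p 0.00790), in MPA over P4 cells (0.73, adjusted p 0.00186), in E2+MPA over E2+P4 cells (0.70, adjusted p 0.00367) and in E2+MPA over E2 cells (0.71, adjusted p 0.00216). All of these held without the doubted pair. PIP, the prolactin-induced protein, a secretory product of apocrine cells that androgens also control, fell in E2pre+P4 cells. It was at 11.54, 13.12, 11.74 and 11.59 there, against 13.91, 13.72, 13.54 and 13.77 in P4 cells and 12.70, 13.04, 13.11 and 13.27 in vehicle cells. The fall was 3.32-fold against P4 (log2 -1.73, adjusted p 5.04e-04) and 2.04-fold against vehicle (log2 -1.03, adjusted p 0.0387), and without the doubted pair 4.30-fold (adjusted p 1.12e-07) and 2.64-fold (adjusted p 1.08e-04), with the doubted replicate 2 the single array at vehicle level. CCND1, cyclin D1, was higher by 0.45 in E2+MPA than in MPA cells (adjusted p 0.0487). MYC, BCL2L1, PIM1, PIM2 and ID1 passed in no comparison with all arrays. Some calls appeared only without the doubted pair. PIP was then 3.75-fold lower in E2pre+P4 than in E2+P4 cells (adjusted p 1.86e-06). It was 1.79-fold higher in MPA than in vehicle cells (0.0304) and 1.89-fold lower in E2+MPA than in MPA cells (0.0171). PIM1 was 1.72-fold higher in E2pre+P4 than in P4 cells (0.0391).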

How the data were processed

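RNA from ZR-75-1 cells was hybridised to Illumina HumanWG-6 v3 arrays, 4 per group. The authors exported a signal intensity and a detection value for each of 48803 probes per array with BeadStudio, without normalization in the deposited file, and the deposited detection column holds 1 minus the detection p-value. The value table deposited beside it, in intensity units, was a straight-line change of each array's signal (largest residual 0.128, column medians 5.4 to 30.9, between 0.0635% and 43.7% of values below 0). It served as an alternative. Per the methods the authors went on to vsn, ComBat and limma, and chip or batch was not given in the sources used here.

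Probe names came from the platform annotation: 27578 probes had 1 gene symbol, 13 several and 21212 none. Signals were background-corrected and quantile-normalised with neqc in limma 3.58.1 (R 4.3.3) at an offset of 16, which gives log2 levels. A probe was kept when its detection p was under 0.01 on at least 4 arrays (15112 probes), and a gene was represented by its kept probe of highest mean (9902 genes). A model of 9 group means was fitted over all genes, with 25 contrasts, eBayes and Benjamini-Hochberg adjustment within each contrast at 0.05. Intervals are 95%. The median interval over all genes tested reached 0.400 on either side, and the number of arrays limits that precision. Genes not detected on any array of a group have a bound for the fold, which is approximate where the brighter group also held undetected arrays. Another fit took each kept probe on its own. The test was run on simulated data first. All probes of the 7 genes were named. The other genes named were those of 5 fixed lists that passed, and the 3 genes with the highest correlation to each member that changed. The members and lists were chosen with earlier results of these data known. Alternatives covered normalization, background, filter, probe choice, blocks, the samples fitted and each array left out.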

Additional observations from a re-analysis of the deposited data

Results flagged for a closer look

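Among 72 sets of 4 arrays of a member's probe, 3 held an array far from the other 3 by Dixon's test at the 95% level, which chance alone passes in about 1 of 20 sets. JAK2 was at 5.52 in vehicle replicate 1, with the next array at 6.63, neither detected. STAT5B was at 8.04 in DHT replicate 2, the only detected array of that group, with the next at 7.04. SOCS2 was at 8.70 in vehicle replicate 1, with the next array at 9.22. The vehicle array that was low for JAK2 and for the SOCS2 probe used is replicate 1. On the second SOCS2 probe it was the highest vehicle array, at 7.84 against 7.15, 7.41 and 6.66. Leaving vehicle replicate 1 out ended the JAK2 call of E2+MPA and of E2pre+P4 cells and the SOCS2 call of E2+MPA cells (adjusted p 0.103, 0.299 and 0.124). Other single arrays also ended the JAK2 call of E2pre+P4 cells and the SOCS2 call of E2+MPA cells.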

How the results depend on the processing

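Of the 20 member tests that passed, 17 also passed after cyclic loess, 18 without background correction, 17 without the detection filter, 18 with every kept probe, 12 in the deposited value table, 15 with blocks of 6 consecutive arrays and 9 when only the compared groups were fitted, and none changed sign. Against vehicle the count of 11 was 6 in the value table and 3 with only the compared groups, where JAK2 no longer passed for E2+DHT (adjusted p 0.135) or E2+MPA (0.241), and it ran from 5 without vehicle replicate 1 to 13 without vehicle replicate 2. With E2 added, the count of 2 was 1 after cyclic loess, without background correction, without the filter, with every probe, in the value table and with the replicate block, and 0 with blocks of 6 arrays or only the compared groups (1 to 3 when single arrays were left out). With a steroid added to E2 the count of 2 was 1 with only the compared groups and 3 without the doubted arrays (2 to 3). For E2pre+P4 against E2+P4 the count of 0 was 2 without the 2 doubted arrays (0 to 1), where 126 genes passed in place of 1. Interactions stayed at 0 (0 to 0), and the steroid pairs gave 5, with 4 to 7 across the alternatives (4 to 6 when single arrays were left out). By probe the count of 27 was 13 with only the compared groups (21 to 33). The causes were not tested. Replicate numbers paired the samples weakly at most. In their deviations from the group means, same-numbered arrays had a median correlation of 0.044 over 144 pairs, 65 of them over 0.1. Arrays of different number had a median of -0.029 over 432 pairs, 166 of them over 0.1. The latter ran from -0.86 to 0.91, so that some arrays of different groups deviated together. Of 36 arrays 11 correlated best with their own number. With the replicate block 19 member tests passed, 18 of them shared, and the calls lost were JAK2 in E2pre+P4 against vehicle cells (adjusted p 0.0528) and SOCS2 in E2pre+P4 against P4 cells (0.0678). Cyclic loess moved the median of all genes by up to 0.127 and the value table by up to 0.192. Dim probes limit JAK2, STAT5A and SOCS3 to bounds.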
